A study of Mus musculus with 4 samples.

Results

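Trim28, Setdb1, Atf7ip, Zfp809, Morc3, Mphosph8, Chaf1a, Chaf1b, Daxx and Atrx encode heterochromatin factors and histone chaperones that keep endogenous retroviruses silent in mouse embryonic stem cells (ESCs). They were taken by gene symbol, and all 10 were present among the 55335 genes of the deposited tables and passed the filter on low counts. RNA was sequenced from 2 control libraries and 2 libraries of cells supplemented with lactate at 50 mM for 24 h, which the labels call Control and Lactate treatment. All 4 came from AB2.2, a single ESC line grown over MEF feeder cells in medium with 15% serum, leukemia inhibitory factor at 1000 U/mL, the GSK3 inhibitor CHIR99021 at 3 μM and the MEK inhibitor PD0325901 at 1 μM. No label ties the libraries to separate cultures, so the p-values measure only the spread between these libraries, which may be technical.

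The genes act in connected steps of repression. KRAB zinc finger proteins such as ZFP809 recognise retroviral sequence and bring in TRIM28, which recruits the H3K9 methyltransferase SETDB1 with its partner ATF7IP. MPHOSPH8 is the chromodomain reader of the HUSH complex, MORC3 is a nuclear ATPase, CHAF1A and CHAF1B are subunits of the replication-coupled chaperone CAF-1, and DAXX with the remodeller ATRX deposits the histone variant H3.3. In ESCs, loss of factors of this kind is known to release IAP, murine leukemia virus-like and MERVL elements.

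Gene counts numbered between 18067562 and 19077885 per library, and the 10 genes together held 0.275% and 0.280% of them in the control libraries, numbered 1 and 2, and 0.249% and 0.238% in those with lactate. Mitochondrial genes held 5.48% and 5.72% of the counts in control and lactate replicate 1, and 2.43% and 2.82% in control and lactate replicate 2. All 10 ESC markers on the list, including Pou5f1, Nanog and Sox2, were detected and summed to between 5955 and 7273 CPM, the gene counts scaled to a common library size after TMM normalization. All 12 feeder fibroblast markers were detected too, with sums of 2891 and 3063 CPM in control and 3817 and 3406 CPM in lactate libraries. Fn1 made up most of each sum, and without it the sums were 501 and 715 CPM in control and 495 and 560 CPM in lactate libraries. Of all 12 markers, with Fn1 among those higher, 6 were higher and 6 lower with lactate. The part of feeder RNA in the results below was not tested. In RNA from whole cultures, fewer cells of a type and less RNA per cell cannot be told apart.

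The levels of the 10 genes were compared per length, as FPKM from RSEM, which scales fragments by transcript length and by depth. Trim28 stood far above the others at 971 ± 20.4 FPKM in control cells (SD, n = 2), higher than 99.2% of the 13446 genes with a control mean above 1 FPKM. Atrx followed at 92.9 ± 17.1 FPKM, and each of its control libraries lay above each of those of Chaf1b, at 62.5 ± 1.27 FPKM. Setdb1 had 60.8 ± 0.0919 FPKM, just below Chaf1b without overlap of the control libraries. Zfp809, Morc3, Mphosph8 and Daxx, with control means of 55.6, 54.9, 47.8 and 45.4 FPKM, followed in this order. From Setdb1 to Daxx each gene overlapped the next and was not separated from it beyond the spread of the control libraries, while both control libraries of Daxx lay above those of Chaf1a. Chaf1a at 26.3 ± 3.18 and Atf7ip at 23.6 ± 6.72 FPKM were lowest and overlapped each other, and Atf7ip was still higher than 66.7% of the expressed genes. With TPM in place of FPKM the order was the same.

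**Figure D1:**
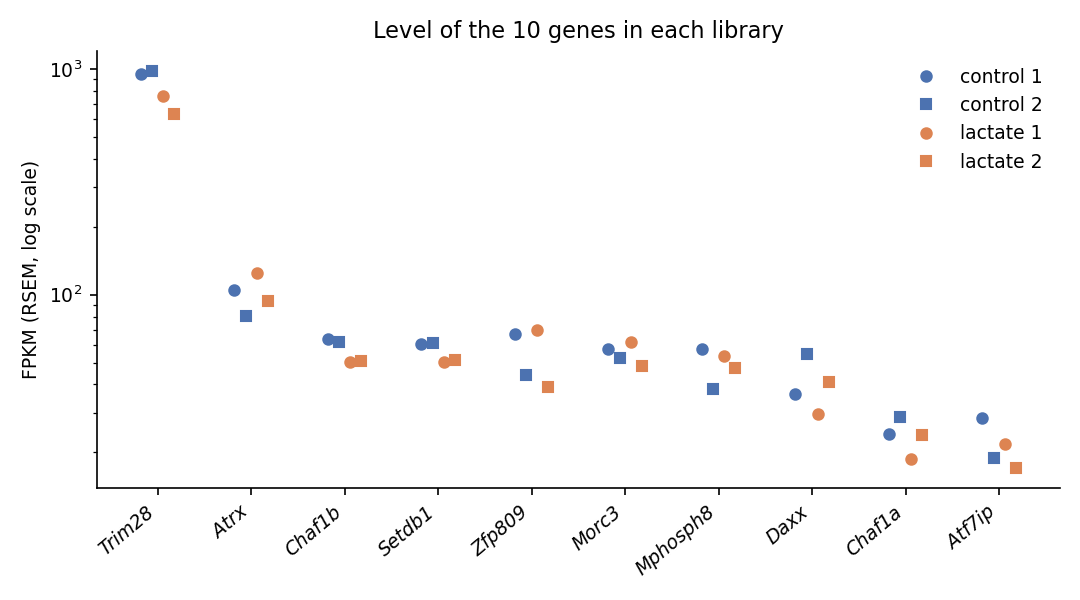
FPKM of each gene (log scale) in control replicates 1 and 2 and lactate replicates 1 and 2, one point per library, ordered by the control mean. Trim28 lies near 971 FPKM in control cells, and the other 9 genes have control means between 23.6 and 92.9 FPKM.

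Base sequence just upstream of the RefSeq transcription start is shown for Trim28, Chaf1b and Daxx, the 3 members with the lowest p-values between lactate and control cells, described further on. Each run holds the 250 bases before the start on the plus strand of GRCm38.p6, from RefSeq, with capitals for 3 kinds of motif on either strand. These are the GC box, searched as GGGCGG, the CCAAT box by those letters, and the ETS core, searched as CCGGAAG. The windows are chr7:13023902-13024151 for Trim28, chr16:93883651-93883900 for Chaf1b and chr17:33909195-33909444 for Daxx, which has 3 RefSeq starts of which the most upstream is used.
Trim28: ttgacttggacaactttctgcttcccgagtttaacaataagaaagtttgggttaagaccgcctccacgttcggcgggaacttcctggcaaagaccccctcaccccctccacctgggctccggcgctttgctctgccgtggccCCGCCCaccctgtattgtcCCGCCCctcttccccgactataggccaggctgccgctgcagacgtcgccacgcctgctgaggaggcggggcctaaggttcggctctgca
Chaf1b: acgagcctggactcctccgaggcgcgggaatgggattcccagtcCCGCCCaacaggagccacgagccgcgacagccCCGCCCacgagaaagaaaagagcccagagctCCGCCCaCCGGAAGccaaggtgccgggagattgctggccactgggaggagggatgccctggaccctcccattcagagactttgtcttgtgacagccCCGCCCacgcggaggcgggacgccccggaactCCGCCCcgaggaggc
Daxx: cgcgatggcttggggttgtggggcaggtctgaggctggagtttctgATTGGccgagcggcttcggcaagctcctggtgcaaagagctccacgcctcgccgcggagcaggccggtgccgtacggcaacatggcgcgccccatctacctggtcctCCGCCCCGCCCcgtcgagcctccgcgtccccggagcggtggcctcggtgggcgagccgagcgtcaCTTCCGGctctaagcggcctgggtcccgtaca
The printed windows hold 17, 21 and 29 CpG sites, and GC boxes number 2, 5 and 2, with the pair in Daxx overlapping. An ETS core lies in the windows of Chaf1b and Daxx, and a CCAAT box in that of Daxx.

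All 10 members matched a RefSeq start, and over windows of 300 bases (250 before and 50 after the most upstream start) they held between 11 and 33 CpG sites, with a median of 25.5. Over the 12441 starts of genes with more than 1 FPKM in control cells the median was 20 (quartiles 12 and 29), and over all 32841 starts it was 7. A GC box was present in 8 of the 10 members, all except Zfp809 and Atrx, beside 63.1% of the starts of expressed genes and 35.7% of all starts. A CCAAT box was present in 8, all except Trim28 and Chaf1b, beside 38.4% and 37.4%. An ETS core was found in Setdb1, Chaf1b and Daxx, beside 17.9% and 8.86%. None held the letters TATAAA, which 6.82% of the starts of expressed genes hold, and none held the E2F letters TTTCGCGC or TTTGGCGC (1.58%), the palindrome of NRF1 (2.10%), YY1 AAGATGGCG (3.05%) or CRE TGACGTCA (3.09%), all searched on both strands. These counts describe letters in a window, and no binding was measured.

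No member was called between lactate and control cells, where a call needed both more than 2-fold change and an adjusted p-value below 0.05 in edgeR's quasi-likelihood test. Among all 18661 genes tested 0.900% were called, 0.348% lower and 0.552% higher with lactate. The lowest adjusted p-value of a member was 0.141 (edgeR, Benjamini-Hochberg adjustment), and none reached 0.05 without the fold limit, as 0.991% of all genes did. DESeq2 likewise gave 0 members an adjusted p-value under 0.05, with a lowest of 0.187, where 4.99% of the genes it adjusted passed and 2.11% passed with more than 2-fold change. At an unadjusted p under 0.05, edgeR placed 3 members, Trim28, Chaf1b and Daxx, lower with lactate, against 11.4% of all genes. In this list, chosen with earlier results of these data known, 9 of the 10 members had a log2 fold change below 0, compared with 49.0% of all genes. Atf7ip, Zfp809, Morc3 and Mphosph8 lay between −0.11 and −0.03. With upper-quartile factors or library totals alone in place of TMM, 8 members were below 0. The median of the 10 members was −0.20, with a range from −0.48 to 0.14, beside a median of 0.01 over all genes tested. Both the median and the count of members below 0 moved with single libraries. The median was −0.33 without control replicate 2 and −0.37 without lactate replicate 1, with all 10 members below 0, and it was −0.13 without control replicate 1 and −0.15 without lactate replicate 2, with 6 of the 10 below 0.

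By overlap of the groups the members fell into 2 kinds, and replicate number also set libraries apart in the first kind. In Trim28, Setdb1, Chaf1a, Chaf1b and Daxx both lactate libraries lay below both control libraries, a pattern found in 25.9% of all genes tested. In Atf7ip, Zfp809, Morc3, Mphosph8 and Atrx the groups overlapped, and both libraries numbered 1 lay above both numbered 2 whatever the treatment, which was so for 18.6% of all genes tested. For none of the 10 members did both lactate libraries lie above both controls, as they did in 27.0% of all genes. In CPM, replicate 1 of Trim28, Chaf1a and Daxx lay below replicate 2 in both groups. For Chaf1a the log2 differences were −0.20 in control and −0.36 in lactate libraries, beside a log2 fold change of −0.30. Setdb1 and Chaf1b had replicate 1 slightly higher, by 0.094 and 0.078 in control and 0.055 and 0.088 in lactate libraries.

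**Figure D2:**
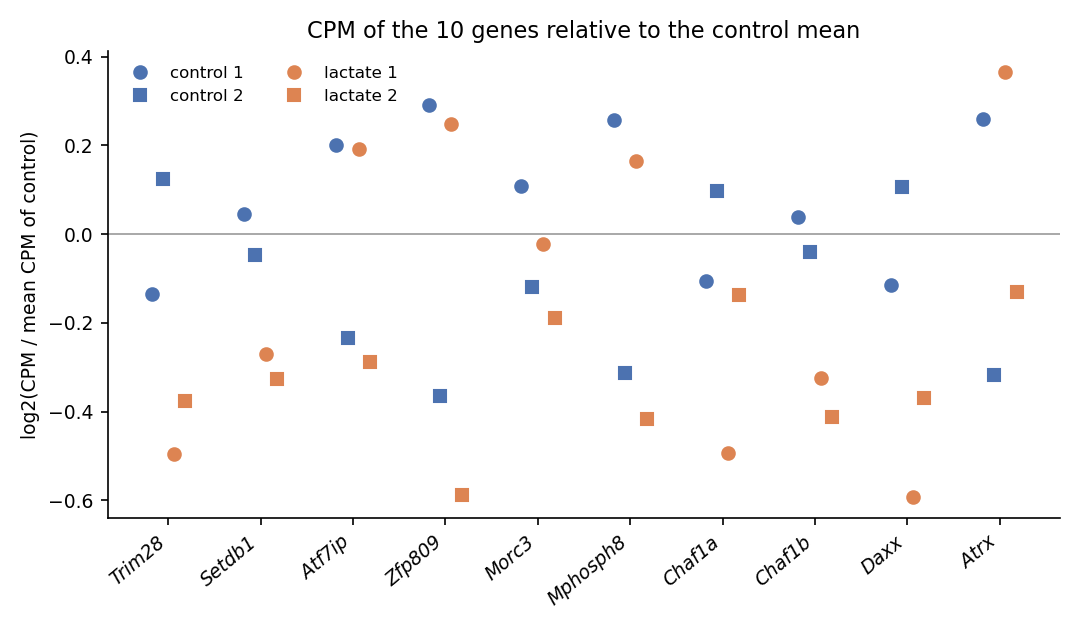
The log2 ratio of each library's CPM to the mean CPM of the control libraries, for each of the 10 genes. Blue marks control and orange lactate, circles replicate 1 and squares replicate 2. The orange points of Trim28, Setdb1, Chaf1a, Chaf1b and Daxx lie below both blue points, and in Atf7ip, Zfp809, Morc3, Mphosph8 and Atrx the circles lie above the squares.

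Trim28, the corepressor that KRAB zinc finger proteins recruit, had 1212 and 1451 CPM in the control libraries and 944 and 1025 CPM in the lactate libraries. The lactate libraries were both lower and the groups did not overlap. The log2 fold change was −0.44 (95% interval −0.83 to −0.04, standard error 0.16, adjusted p-value 0.185, edgeR), a level 26.0% lower. Leaving out each library in turn gave between −0.58 and −0.30. FPKM showed the same order of the groups, with 956 and 985 in control and 759 and 633 in lactate libraries. Within the lactate group the order of the replicates in FPKM was the reverse of that in CPM. Trim28 lies on chromosome 7 of GRCm38 from 12999114 to 13031035 in GENCODE release M21, on the plus strand, and shares no exon bases with another annotated gene. Its RefSeq start lies inside that span.

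Setdb1, the methyltransferase that places H3K9me3 on endogenous retroviruses, had 283 and 265 CPM in control and 227 and 219 CPM in lactate libraries. Its groups did not overlap, and the spread within each group was small. The log2 fold change was −0.30 (standard error 0.13, 95% interval −0.61 to 0.02, adjusted p-value 0.239, edgeR). Atf7ip, which stabilises SETDB1 in the nucleus, had 153 and 113 CPM in control and 152 and 109 CPM in lactate libraries. Here the groups overlapped almost fully, and the log2 fold change of −0.03 had an interval from −0.56 to 0.51.

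The CAF-1 genes were both lower in each lactate library. Chaf1b, a WD-repeat subunit, had 105 and 99.4 CPM in control and 81.6 and 76.7 CPM in lactate libraries, a log2 fold change of −0.37 (standard error 0.13, 95% interval −0.67 to −0.06, adjusted p-value 0.160, edgeR). Chaf1a, the large subunit, had 130 and 149 CPM in control and 99.0 and 127 CPM in lactate libraries, with control replicate 1 only slightly above lactate replicate 2. Its log2 fold change was −0.30 (interval −0.71 to 0.10), and it was −0.16 without lactate replicate 1 and −0.50 without lactate replicate 2. Ubxn6, on the opposite strand, shares 52.5% of the exon bases annotated to Chaf1a, and the use of strand in the counting is not given in the sources used here, so the counts of Chaf1a are uncertain. Ubxn6 had a log2 fold change of −0.36 (adjusted p-value 0.201, edgeR). Chaf1b shares no exon bases with another gene, and it lies 7828 bases downstream of Morc3 on chromosome 16.

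Daxx and Atrx, which act as a complex, had fold changes of opposite sign, and the difference between the genes was not tested. Daxx, the H3.3 chaperone, had 69.5 and 81.0 CPM in control and 49.9 and 58.3 CPM in lactate libraries. Both lactate values were below both control values, and the log2 fold change of −0.48 was the most negative of the 10 (standard error 0.15, 95% interval −0.84 to −0.11, adjusted p-value 0.141, edgeR), a level 28.1% lower. In FPKM the groups of Daxx overlapped, with 36.2 and 54.5 in control and 29.5 and 41.0 in lactate libraries. Atrx, the chromatin remodeller, had 483 and 324 CPM in control and 519 and 368 CPM in lactate libraries. The replicates of a group lay further apart than the groups, and the log2 fold change was 0.14 (interval −0.47 to 0.75). It was −0.13 without control replicate 2 and −0.16 without lactate replicate 1. Daxx lies on chromosome 17 from 33909414 to 33915590 and Atrx on chromosome X from 105797615 to 105929403.

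The remaining members were set apart by replicate number more than by lactate. Zfp809, whose protein binds the primer binding site of murine leukemia virus, had 100.3 and 63.7 CPM in control and 97.4 and 54.5 CPM in lactate libraries. Replicate 1 was above replicate 2 by 0.65 in the control and 0.84 in the lactate libraries on the log2 scale. The log2 fold change with lactate was −0.11 with an interval from −0.89 to 0.67, the widest of the 10, and it was 0.24 without control replicate 1 and 0.25 without lactate replicate 2. Mphosph8 had 142 and 95.7 CPM in control and 133 and 89.1 CPM in lactate libraries, again with both libraries numbered 1 higher, by 0.57 and 0.58. Its log2 fold change was −0.10 (interval −0.73 to 0.53), and 0.20 and 0.16 without the same libraries as for Zfp809. The lncRNA gene Gm16973 shares 10.7% of the exon bases of Mphosph8 on the other strand. Morc3 had 199 and 170 CPM in control and 182 and 162 CPM in lactate libraries, a log2 fold change of −0.10 (interval −0.46 to 0.26). It was −0.22 without control replicate 2 or lactate replicate 1, −0.0025 without control replicate 1 and −0.025 without lactate replicate 2. The direction of Atf7ip also turned on single libraries, with 0.19 both without control replicate 1 and without lactate replicate 2. The mitochondrial share was higher in the libraries numbered 1 as well, and its part in these differences was not tested.

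The wider silencing machinery had fold changes of both signs. All 48 related genes passed the filter, 29 of them being higher and 19 lower with lactate, at a median of 0.11 on the log2 scale. None was called or reached an adjusted p-value of 0.05 in edgeR (lowest 0.0526), while 13 had an unadjusted p under 0.05, of which 5 were higher and 8 lower, beside 23.1% of all genes. DESeq2 gave 4 an adjusted p-value under 0.05, beside 4.99% of all genes it tested, and none of these changed more than 2-fold.

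Those 4 genes were Chd4, Ehmt2, Pcna and H3f3b. Chd4, the ATPase of the NuRD corepressor complex, had 776 and 794 CPM in control and 447 and 448 CPM in lactate libraries, the lowest p-value among the related genes. On the log2 scale the difference was −0.81 ± 0.14 (standard error), with adjusted p-values of 0.0526 in edgeR and 0.000717 in DESeq2. Ehmt2, the G9a methyltransferase of H3K9me2, had 132 and 167 CPM in control and 75.4 and 91.5 CPM in lactate libraries, a log2 fold change of −0.84 (adjusted p-value 0.0678 in edgeR and 0.00424 in DESeq2). Pcna, the sliding clamp that brings CAF-1 to replication forks, had 337 and 333 CPM in control and 224 and 217 CPM in lactate libraries, a log2 fold change of −0.61 (adjusted p-value 0.0694 in edgeR and 0.0241 in DESeq2). The fourth went the other way. H3f3b, one of the genes for histone H3.3, had 548 and 546 CPM in control and 872 and 921 CPM in lactate libraries, a log2 fold change of 0.71 (adjusted p-value 0.0628 in edgeR and 0.00785 in DESeq2). Near-identical copies of H3.3 genes could have shared reads with it, so its value is uncertain.

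By role, the other genes around the members spread as follows. Of 7 further KRAB zinc finger genes 6 were higher with lactate (median log2 fold change 0.27), among them Zfp568, with 296 and 333 CPM in control and 427 and 475 CPM in lactate libraries and a log2 fold change of 0.52 (adjusted p-value 0.114, edgeR). Of the 5 other HUSH and MORC genes 4 were higher (median 0.35). Of the 7 HP1 and SUMO genes 3 were higher, with a median of −0.02 and a range from −0.28 to 0.11. Of the 8 further H3K9 methyltransferase genes and partners 4 were lower (median 0.01). Of the 6 genes for H3.3 and its other chaperones 4 were lower (median −0.26), namely Hira, Ubn1, Cabin1 and H3f3a. Among the 4 CAF-1 partners 3 were higher, all except Pcna (median 0.08). Among the 11 corepressors and remodellers, which include Chd4, 7 were higher and 4 lower (median 0.12). Zfp42, the pluripotency marker REX1 that is also known to act on endogenous retroviruses, had 668 and 623 CPM in control and 959 and 893 CPM in lactate libraries (log2 fold change 0.52, adjusted p-value 0.112, edgeR). No group of these roles held a called gene.

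**Figure D3:**
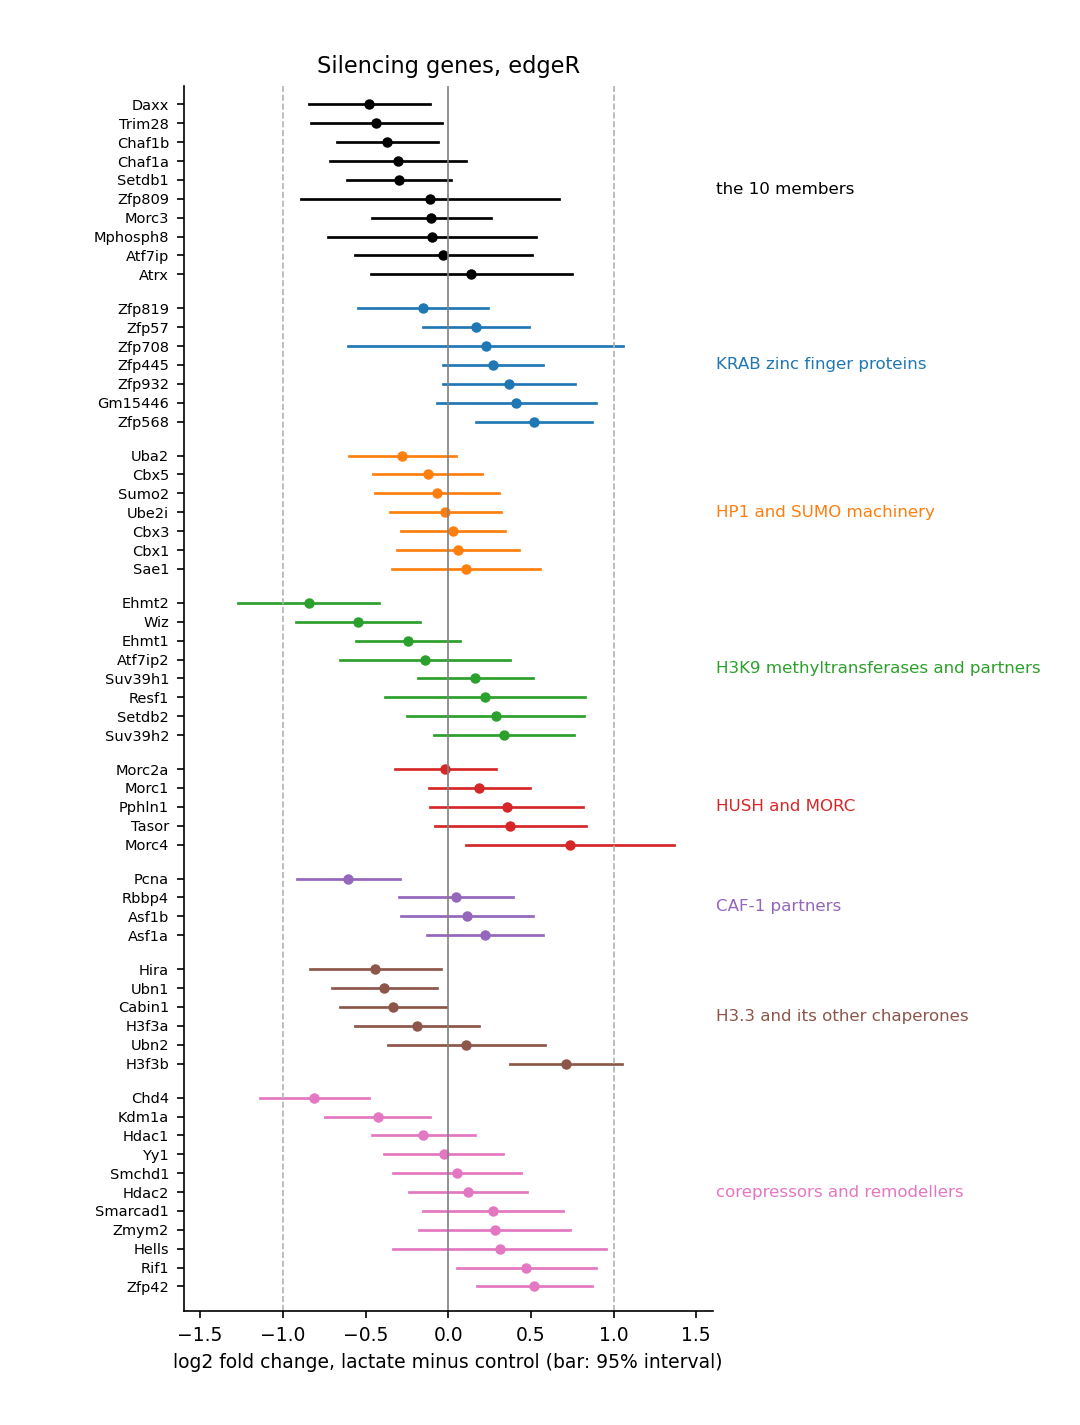
Log2 fold change of lactate over control with its 95% interval (edgeR) for the 10 genes, in black, and the 48 related silencing genes, coloured by role. Dashed lines mark a 2-fold change. Of the 10 genes 9 lie left of 0, and all point estimates of both lists stay between −0.84 and 0.74.

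The retrotransposons that these genes silence were followed in the 28 families chosen for this purpose, out of 932 families that passed the filter. None was called or reached an adjusted p-value of 0.05 in edgeR, as was so for 0 of all 932 families (0%), while 5 had an unadjusted p under 0.05, all higher with lactate. Of all families 6.33% had such a p, 5.36% higher and 0.966% lower. Of the 28 families 16 were higher and 12 lower, with a median log2 fold change of 0.09 beside 0.14 over all families. Both lactate libraries lay above both controls in 10 of the 28 and below in 4, beside 27.8% and 6.01% of all families. DESeq2 gave 3 an adjusted p-value under 0.05, namely MERVL-int, MT2_Mm and IAPEY3-int, beside 1.01% of the families it adjusted, and each changed less than 2-fold. With more than 2-fold change, 0.112% of the families passed. Reads counted on a family come from many copies and can also lie inside transcripts of genes.

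MERVL-int, the internal part of the ERVL element of cleavage embryos, had 569 and 589 CPM in control and 1056 and 1167 CPM in lactate libraries, and the groups were far apart. The log2 fold change of 0.94 had an interval from 0.59 to 1.29 (adjusted p-value 0.0535 in edgeR and 0.000143 in DESeq2). With libraries scaled by their totals alone, MERVL-int was called. MT2_Mm, the long terminal repeat of the same element, had 106.3 and 105.7 CPM in control and 171 and 181 CPM in lactate libraries, a log2 fold change of 0.73 (adjusted p-value 0.0573 in edgeR and 0.00977 in DESeq2). In the same libraries 9 markers of 2C-like cells summed to 19.1 and 17.4 CPM in control and 50.5 and 40.2 CPM in lactate libraries, and their part in the MERVL values was not tested.

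IAPEz-int, the internal part of the most active IAP elements, had 758 and 759 CPM in control and 738 and 713 CPM in lactate libraries. The log2 fold change was −0.06, with an interval from −0.40 to 0.27. IAPEY3-int, named after its values were seen, had 43.5 and 39.4 CPM in control and 74.1 and 70.7 CPM in lactate libraries, a log2 fold change of 0.80 (adjusted p-value 0.0550 in edgeR and 0.00827 in DESeq2). MMERVK10C-int had 175 and 158 CPM in control and 227 and 191 CPM in lactate libraries (log2 fold change 0.33, interval −0.03 to 0.69). RLTR4_MM-int, the murine leukemia virus family that ZFP809 is known to bind, had 329 and 272 CPM in control and 473 and 340 CPM in lactate libraries, a log2 fold change of 0.44 (interval −0.05 to 0.93). MMVL30-int, also of the ZFP809 targets, had 120 and 112 CPM in control and 117 and 107 CPM in lactate libraries (−0.05, interval −0.37 to 0.27).

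ETnERV-int and MMETn-int, from the most abundant of the ERVK families on the list, had log2 fold changes of 0.09 and 0.10, with intervals from −0.30 to 0.49 and from −0.56 to 0.77. Of the 4 ETn and MusD families 3 were higher and 1 lower. The lower was RLTRETN_Mm, named after its values were seen. It had 37.4 and 24.7 CPM in control and 22.9 and 21.8 CPM in lactate libraries (log2 fold change −0.48, interval −1.01 to 0.06). MMETn-int had 10764 and 7340 CPM in control and 11534 and 7931 CPM in lactate libraries, so that the libraries numbered 1 were higher in both groups, as for Zfp809. L1Md_A, a young LINE-1 family of the kind that HUSH represses, had 7970 and 5054 CPM in control and 5794 and 3479 CPM in lactate libraries (log2 fold change −0.49, interval −1.27 to 0.29), and L1Md_T had 6165 and 3924 CPM in control and 5489 and 3411 CPM in lactate libraries (−0.18, interval −0.93 to 0.57). Both LINE-1 families were also higher in the libraries numbered 1, and none of the 4 young LINE-1 families separated the groups.

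**Figure D4:**
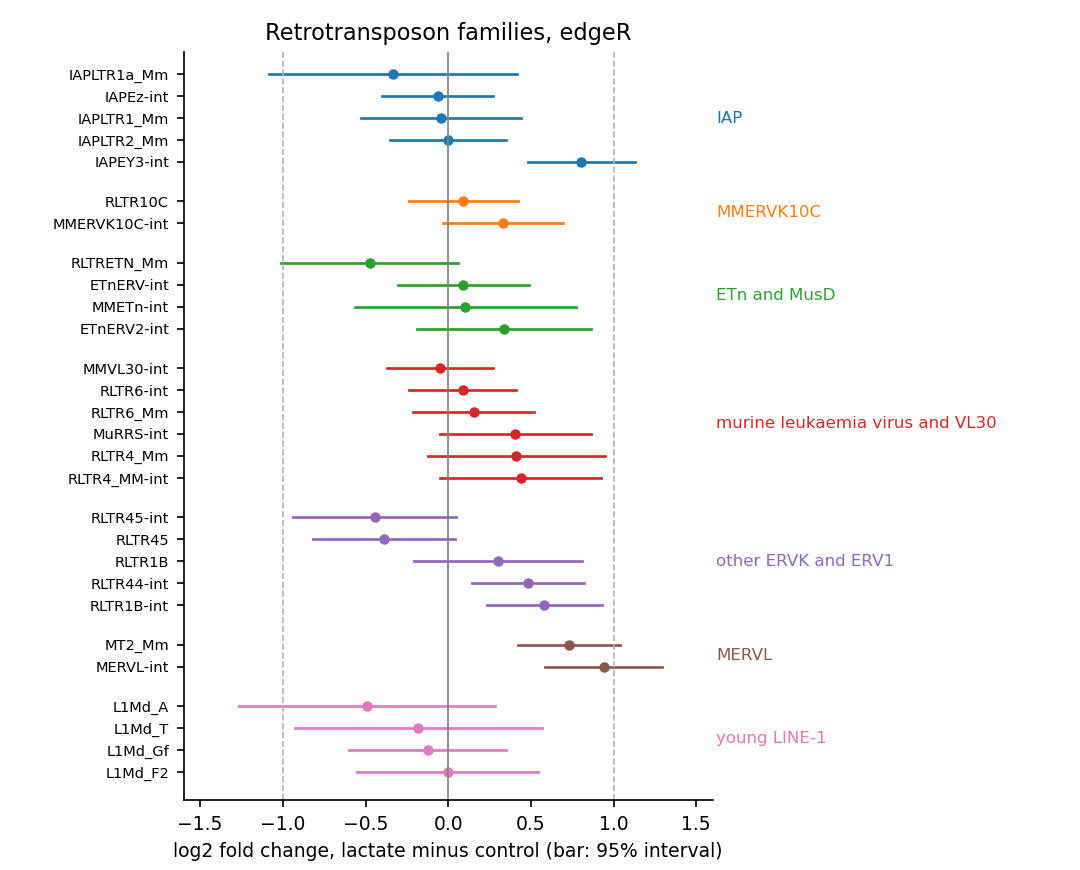
Log2 fold change of lactate over control with its 95% interval (edgeR) for 28 retrotransposon families, coloured by kind. Dashed lines mark a 2-fold change. MERVL-int (0.94) and IAPEY3-int (0.80) lie furthest to the right, and L1Md_A (−0.49) furthest to the left.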

How the data were processed

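RNA-seq of 4 AB2.2 ESC libraries was analysed (2 control, 2 lactate). Per the labels and the methods of the study, the authors used cutadapt 1.16 for trimming, STAR for mapping to mm10 and the exons of GENCODE release M23 for counting. The authors deposited 1 table of raw counts, of 55335 genes and 1153 transposable element families. Their deposited RSEM output holds expected counts, TPM and FPKM. The lengths that RSEM gave a gene differ between libraries, which moves FPKM. The program that counted transposable elements is not given in the sources used here.

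The raw counts were tested with edgeR 4.0.16 under R 4.3.3 (filterByExpr, TMM, quasi-likelihood test in its legacy form, Benjamini-Hochberg over all genes tested). Transposable elements were tested together with the genes, with library sizes and factors from genes. CPM are TMM-scaled. Each standard error is the size of the log2 fold change over the square root of F. Expected counts were rounded for an alternative. Alternatives used DESeq2 1.42.0 and limma 3.58.1, the latter on log2(FPKM + 1) and log2(FPKM + 0.1), and left out each library in turn. The tests were tried first on simulated counts, which held no effect shared by libraries of the same number. The control pair and the lactate pair each differed beyond counting error, at 34.9 and 35.1 chi-square units per degree of freedom, and all 4 libraries were kept apart. An exact permutation test of 2 against 2 libraries cannot go below p = 0.333 (two-sided), so none was run.

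The members and lists were chosen with earlier results of these data known. Named are all 10 members, the 3 related genes with the smallest p in each direction, as none passed, and 10 retrotransposon families. IAPEY3-int, RLTRETN_Mm and the genes listed only by direction fall outside this rule and were named after their values were seen. Positions come from GENCODE release M21 on GRCm38, which holds all 10 members at the same version.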

Additional observations from a re-analysis of the deposited data

How the results depend on the processing

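No setting called a member or a related gene. The 3 limma settings called 0 of all genes, so a count of 0 there says nothing about stability. Trim28, Setdb1, Chaf1a, Chaf1b and Daxx had a log2 fold change below 0 under all 17 alternatives, and so had Morc3, although at −0.010 on log2(FPKM + 1) and −0.0025 without control replicate 1. Atf7ip was 0.0033 with upper-quartile factors and 0.038 with library totals alone, and Mphosph8 was 0.095 on log2(FPKM + 1), with or without a filter, and 0.10 on log2(FPKM + 0.1). With each library left out in turn, 1 group is a single library and the spread comes from the other group alone, so the lone library is assumed to vary like that group. In these fits Atf7ip ranged from −0.32 to 0.19, Zfp809 from −0.62 to 0.25, Mphosph8 from −0.44 to 0.20, Atrx from −0.16 to 0.44, and the median of the members from −0.37 to −0.13, while related genes with an adjusted p-value under 0.05 numbered 0 to 3 (edgeR). Without lactate replicate 1 there were 1 related gene and 2 target families, beside 4.93% of all genes and 1.05% of all families, and without lactate replicate 2 there were 3 and 3, beside 7.14% and 1.89%. Target families ranged from 0 to 3. The cause of these moves was not tested. DESeq2 gave 4 related genes and 3 families such a p-value (beside 4.99% of all genes and 1.01% of all families), and no filter on low counts 4 and 4 (beside 5.003% of all genes and 1.44% of all families). Library totals alone gave 2 families (1 called, MERVL-int), beside 0.215% of all families. Leaving out mitochondrial genes gave 1 family, MERVL-int, beside 0.107%.

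The labels give both groups the numbers 1 and 2 without saying that a number marks a shared culture or day. Deviations from the group means correlated at 0.56 between libraries with the same number, over genes. A replicate block on 4 libraries leaves almost no residual spread to a single gene, so its p-values rest mostly on spread pooled over genes. The standard errors with it were 0.058 for Setdb1 and 0.066 for Zfp809, beside 0.130 and 0.322 without it. With this block, 5 members (Trim28, Setdb1, Chaf1a, Chaf1b and Daxx) had an adjusted p-value under 0.05, between 6.96e-06 and 0.000436 (edgeR). So had 30 related genes, 17 target families, 44.5% of all genes tested and 27.1% of all families. None of the members, related genes or target families was called at more than 2-fold, beside 761 genes called higher and 395 called lower among all 18661 tested. The members' counts were between 928 and 27532 per library.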

Other observations

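The mean transcript length that RSEM assigned to a member, weighted by isoform, was steady for some members and not for others. It stayed between 4754 and 4777 bases for Setdb1 and between 5650 and 5691 for Chaf1a. For Trim28 it was 1581 and 1828 bases without lactate and 1615 and 2029 with it, so that both libraries numbered 2 had the longer value, and for Daxx it was 2170 and 1789 without lactate and 1999 and 1736 with it, with both libraries numbered 1 longer. For Atf7ip it ranged from 5386 to 7101 bases. FPKM divides by this length and CPM does not, so for these 3 genes FPKM and CPM can differ in their spread between libraries. No isoform was tested.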
